A study of Homo sapiens with 6 samples.

Results

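The genes described here encode the enzymes, transporters and regulators of glycolysis, the pentose phosphate pathway and the tricarboxylic acid (TCA) cycle. They were chosen by name as 52 genes in 7 branches of central carbon metabolism, and a gene belonged to the set if its symbol was in the gene column of the table. All 52 were among the 15651 genes in the table, and all 52 were among the 15246 genes that passed the filter on low values. The rule used no measured value. Mean normalized counts of the members ran from 223 for ALDOC to 101643 for ENO1.

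RNA sequencing was carried out on MDA-MB-231 cells, an established human triple-negative breast cancer line with a mesenchymal appearance. One group of 3 libraries came from cells given DMSO, the solvent, and the other group of 3 came from cells given BRL-50481, an inhibitor of the cyclic AMP phosphodiesterase PDE7A. The treatment text of the labels gives 50 μM for 72 h, whereas the treatment tag of the same samples gives 5 μM and 48 h, so the dose and time are not settled by the labels. The paper that reported these data gives 50 μM for 72 h. The replicates are described as biological, all from this single line, and no genetic change of PDE7A was included, so each difference below is between 1 compound at 1 dose and its solvent.

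Between 30750573 and 33446984 reads per library were assigned to genes. The DMSO replicate 1 library stood farthest from the others, with a residual SD of 0.141 on the log2 scale, against 0.119 and 0.0964 in the other DMSO libraries and 0.0791 to 0.0832 under BRL-50481. Results that turn on it are given with and without it. All 4 mesenchymal markers were in the table and their summed normalized counts were 140179 to 146011 under DMSO and 190172 to 191993 under BRL-50481. All 4 rose, and VIM, the most abundant, had a log2 fold change of 0.58 (limma adjusted p = 2.91e-07). The luminal list summed to 683 to 729 under DMSO and 747 to 899 under BRL-50481, with 5 of its 6 genes in the table and ESR1, the oestrogen receptor, not in it. Its genes went both ways. CDH1 rose by 1.39 on the log2 scale (limma adjusted p = 4.28e-05) and GATA3, singled out after its values were seen, by 0.57 (limma adjusted p = 0.00234), FOXA1 fell by 1.02 (limma adjusted p = 0.00867), and ERBB3, which made up most of the sum, had a log2 fold change of 0.00 (limma adjusted p = 0.983). PGR was at 0 to 7.75 normalized counts in each library. Of the 4 blood and vessel markers 2 were in the table, PTPRC and CD3E were not, and the list summed to 326 to 396 under DMSO and 465 to 552 under BRL-50481. PECAM1 made up most of that sum and rose by 0.48 (limma adjusted p = 0.000851). CDH5 had 0, 0.980 and 2.04 normalized counts under DMSO and 7.05, 15.1 and 4.85 under BRL-50481, and its call as higher (limma adjusted p = 0.0104) was lost without BRL-50481 replicate 2 (0.0786). The part of these lists in the results was not tested. In bulk RNA, fewer cells of a type and less RNA per cell cannot be told apart.

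Glycolysis breaks glucose down to pyruvate in the cytosol, and in many cancer cells much of that pyruvate is turned into lactate even when oxygen is present. The oxidative arm of the pentose phosphate pathway makes NADPH, and its other arm interconverts sugar phosphates and yields the ribose phosphate from which PRPP, the sugar donor for nucleotides, is made. Pyruvate enters the mitochondrion, where the pyruvate dehydrogenase complex turns it into acetyl-CoA, and the TCA cycle oxidizes it and supplies precursors for biosynthesis. Many of these steps are carried out by isoenzymes from separate genes, so the transcripts of 1 step can move apart.

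The promoters of the members with the largest called rises and falls are shown because several glycolytic genes are known targets of factors that bind ACGTG or CACGTG. RefSeq promoter sequences (GRCh38.p14) matched 49 of the 52 members, and SLC2A3, PFKFB2 and OGDH had no entry. Each sequence below is the 250 bases before the gene's RefSeq start, which can differ from the GENCODE gene ends given further on, read 5′ to 3′ on the strand of the gene. Capitals mark matches to ACGTG or GCGTG on either strand, extended where the match lies in CACGTG, which reads the same on both strands. The ALDOC window is chr17:28576896-28577145 on the minus strand, SUCLG2 is chr3:67654613-67654862 on the minus strand, RPIA is chr2:88691423-88691672 on the plus strand, and PFKFB3 is chr10:6144671-6144920 on the plus strand.
ALDOC: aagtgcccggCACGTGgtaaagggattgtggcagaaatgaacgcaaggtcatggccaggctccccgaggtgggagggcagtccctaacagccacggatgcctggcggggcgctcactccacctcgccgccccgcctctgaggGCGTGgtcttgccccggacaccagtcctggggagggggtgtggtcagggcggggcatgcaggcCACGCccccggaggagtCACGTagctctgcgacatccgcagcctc
SUCLG2: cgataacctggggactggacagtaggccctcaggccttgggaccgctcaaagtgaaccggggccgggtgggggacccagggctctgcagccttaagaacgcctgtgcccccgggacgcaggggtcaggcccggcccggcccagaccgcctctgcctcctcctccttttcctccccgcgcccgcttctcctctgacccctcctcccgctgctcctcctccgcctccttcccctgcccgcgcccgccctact
RPIA: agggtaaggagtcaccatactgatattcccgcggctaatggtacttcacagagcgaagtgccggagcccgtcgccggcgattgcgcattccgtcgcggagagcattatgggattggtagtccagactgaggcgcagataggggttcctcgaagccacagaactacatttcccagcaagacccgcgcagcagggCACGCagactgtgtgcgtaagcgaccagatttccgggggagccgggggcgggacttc
PFKFB3: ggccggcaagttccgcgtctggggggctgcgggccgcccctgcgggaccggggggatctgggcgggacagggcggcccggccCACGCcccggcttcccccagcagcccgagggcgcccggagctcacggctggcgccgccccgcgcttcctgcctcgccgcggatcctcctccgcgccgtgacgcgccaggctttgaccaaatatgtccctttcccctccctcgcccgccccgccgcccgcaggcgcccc

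Only the letters of these windows were searched. The ALDOC promoter held 3 matches to the first core, ACGTG, of which a pair overlap in the 1 palindromic hexamer, and 2 matches to the second core. No match to either core was found in the SUCLG2 window, and RPIA and PFKFB3 each had 1 match, to the second core.

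The first core was found in 15 of the 49 member promoters (30.6%), against 18.7% of all 27305 promoters of the same length. It was in 6 of the 13 promoters of members that rose (ALDOC, GAPDH, PGK1, PDHB, DLAT and PC), in 2 of the 18 of members that fell (ENO2 and PGD) and in 7 of the 18 of members not called. The second core, GCGTG, was in 21 member promoters (42.9%, against 31.9% of all), with 7 among the risen, 7 among the fallen and 7 among those not called. The hexamer was in 4 member promoters, and in 6.49% of all promoters. A match is a description of the sequence and not evidence that a factor binds there.

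Central carbon genes moved in both directions after BRL-50481. With limma on log2 of the normalized count plus 1, 14 of 52 members rose (26.9%) and 20 fell (38.5%) with p-values adjusted by Benjamini-Hochberg over all 15246 genes and a threshold of 0.05, and 18 were not called. Over all genes tested, 58.7% were called, 28.9% higher and 29.8% lower, so the share of members that rose was near the background. The counts by branch below are to be read beside these shares. The median log2 fold change of the members was -0.05, against 0.01 over all genes. With quantile normalization the split turned to 19 members higher and 13 lower, or 59.4% of calls higher in place of 41.2%. Without DMSO replicate 1 it was 15 higher and 23 lower, and without BRL-50481 replicate 1 it was 12 and 12.

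Large changes were seen in 10 of the 52 members. With an absolute log2 fold change of at least 0.5 added to the call, 4 members rose (ALDOC, SUCLG2, IDH2 and PFKL) and 6 fell (RPIA, PFKFB3, IDH3A, PRPS2, SLC2A3 and MDH2), where 15.1% and 12.1% of all genes did so. The share of members with such a fall was thus near the background. The share with such a rise was smaller than over all genes, a difference that was not tested. The 3 libraries of each group did not overlap in 38 of 52 members, higher in 16 and lower in 22. Of all genes 64.2% did not overlap, 31.9% higher and 32.3% lower. Of the 34 calls, 23 kept their direction and their call in all 17 alternatives, and the other 11 are named in their branches below. Limma without the trend lost 10 of those 11, all but OGDH. Quantile normalization lost PFKM, TPI1, ENO2, LDHB, RPE and TALDO1, median centring lost the same genes except RPE, and DESeq2 lost PFKM, PFKFB2 and DLAT. The members held 1.64% ± 0.0638 (SD, n = 3) of all normalized counts under DMSO and 1.71% ± 0.0316 (SD, n = 3) under BRL-50481, and the groups overlapped. The sum of all normalized counts was 3.25e+07 to 3.28e+07 per library under DMSO and 3.10e+07 to 3.11e+07 under BRL-50481. A share can therefore rise without a rise in counts.

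**Figure D1:**
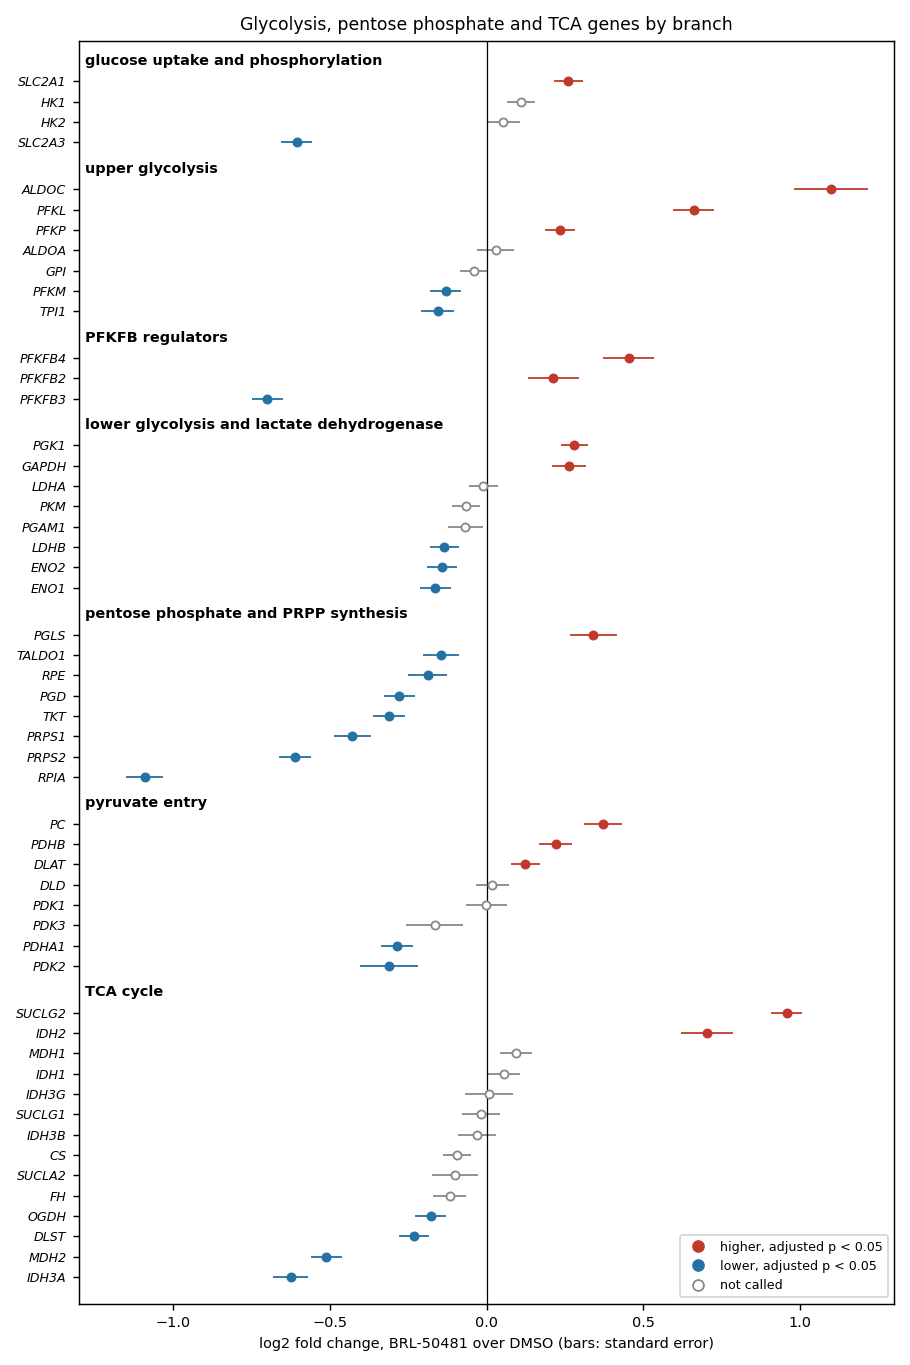
Log2 fold change of BRL-50481 over DMSO for each of the 52 members, arranged by branch, with bars for the standard error and filled points for members called by limma. Every branch has points on both sides of 0, and 7 of the 8 pentose phosphate and PRPP genes lie below it, from -0.15 for TALDO1 to -1.09 for RPIA.

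Among the genes for glucose uptake and the first phosphorylation, the transporters moved apart. SLC2A1, which encodes the widely expressed glucose transporter GLUT1, had 11938, 12730 and 12494 normalized counts under DMSO and 14406, 15372 and 14723 under BRL-50481. All BRL-50481 libraries were above all DMSO libraries, and the log2 fold change was 0.26 ± 0.0463 (SE, limma adjusted p = 0.000329). SLC2A3, which encodes the high-affinity transporter GLUT3 (chromosome 12, 7919230 to 8019007, minus strand, GRCh38), went the other way. Its normalized counts were 5607, 5252 and 5242 under DMSO and 3556, 3570 and 3455 under BRL-50481, without overlap, a log2 fold change of -0.61 ± 0.0491 (SE, limma adjusted p = 3.81e-07). Per kilobase of transcript, SLC2A1 was the more abundant of the pair under DMSO, at 3661 against 1402 normalized counts. Its share of their sum per length went from 72.3% ± 1.42 to 82.6% ± 0.471 (SD, n = 3).

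The hexokinases, which trap glucose in the cell by phosphorylation, were not called, HK1 by a narrow margin. HK1 had a mean of 8529 ± 59.4 normalized counts under DMSO and 9210 ± 324 under BRL-50481 (SD, n = 3), a log2 fold change of 0.11 with limma adjusted p = 0.0504. Its groups did not overlap. HK1 was called higher without DMSO replicate 1 (limma adjusted p = 0.00808), with median centring (0.0172), with the length and GC correction (0.0436), with the filter at a mean of at least 20 (0.0456) and with a replicate block (0.0499). HK2, the inducible isoenzyme, had a log2 fold change of 0.05 with a 95% interval of -0.06 to 0.17. The branch thus had 1 gene higher, 1 lower and 2 not called, with a median log2 fold change of 0.08.

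Of the 7 upper glycolysis genes 3 rose, 2 fell and 2 were not called, with a median of 0.03. The rises included genes of phosphofructokinase, the committed step of glycolysis. PFKL, its liver-type subunit (chromosome 21, 44300051 to 44327376, plus strand), had 2522, 2999 and 2919 normalized counts under DMSO and 4261, 4593 and 4456 under BRL-50481. Every BRL-50481 library exceeded every DMSO library, and the level was 1.58 times as high (log2 fold change 0.66 ± 0.0656 SE, limma adjusted p = 2.2e-06). PFKP, the platelet-type subunit and the most abundant of the 3 per kilobase, had 10932, 11920 and 11795 under DMSO and 13217, 13820 and 13659 under BRL-50481 (log2 fold change 0.23, limma adjusted p = 0.000975). The groups of PFKP did not overlap either. PFKM, the muscle-type subunit, had 3298, 3424 and 3325 under DMSO and 3031, 3017 and 3130 under BRL-50481 (log2 fold change -0.13, limma adjusted p = 0.034).

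The fall of PFKM was past the threshold in the full data but not when any library other than DMSO replicate 1 was left out (limma adjusted p up to 0.112). Set against PFKP per length, the share of PFKL went from 18.0% ± 0.676 to 22.8% ± 0.270 and that of PFKM from 19.8% ± 0.559 to 16.1% ± 0.379 (SD, n = 3). PFKL and PFKM thus changed places in order of level, at 968 and 1084 normalized counts per kilobase under DMSO and 1526 and 990 under BRL-50481.

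ALDOC, the brain-type aldolase (chromosome 17, 28573115 to 28576948, minus strand), had the largest log2 fold change of any member and the lowest counts. It had 130, 137 and 158 normalized counts under DMSO and 271, 322 and 321 under BRL-50481, without overlap, and rose by 1.10 ± 0.119 on the log2 scale (SE, limma adjusted p = 4.5e-06). ALDOA, the main aldolase of most cells, had 22430, 26474 and 24692 normalized counts under DMSO and 23724, 25872 and 25380 under BRL-50481. Those groups overlapped, and the 95% interval of the log2 fold change was -0.10 to 0.16, although ALDOA was called higher with quantile normalization (0.13) and with the length and GC correction (0.095). ALDOA still made up 99.4% of the pair per length under DMSO and 98.8% under BRL-50481. GPI, the isomerase after hexokinase, had a log2 fold change of -0.04 (limma adjusted p = 0.443) and was called lower, at -0.11, with the length and GC correction. TPI1, triose phosphate isomerase, fell by 0.16 on the log2 scale (limma adjusted p = 0.0196), a call lost without DMSO replicate 2, DMSO replicate 3, BRL-50481 replicate 1 or BRL-50481 replicate 2 (limma adjusted p up to 0.0826).

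The PFKFB genes encode the enzymes that make and remove the bisphosphate activator of phosphofructokinase, and all 3 were called. PFKFB3, the form with the highest kinase relative to phosphatase activity (chromosome 10, 6144934 to 6254644, plus strand), had 4041, 4023 and 3849 normalized counts under DMSO and 2427, 2423 and 2482 under BRL-50481. It was lower in every BRL-50481 library, at 0.616 of the DMSO level (log2 fold change -0.70 ± 0.0491 SE, limma adjusted p = 1.1e-07). PFKFB4 had 611, 731 and 608 under DMSO and 873, 894 and 892 under BRL-50481, without overlap (log2 fold change 0.45 ± 0.0806 SE, limma adjusted p = 0.000328). PFKFB2 had 709, 591 and 593 under DMSO and 719, 725 and 743 under BRL-50481, so the highest DMSO library came close to the lowest BRL-50481 one (log2 fold change 0.21, limma adjusted p = 0.0398). This last call was lost when any library other than DMSO replicate 1 was left out (limma adjusted p up to 0.145), and with the length and GC correction the PFKFB2 log2 fold change was 0.038 (limma adjusted p = 0.584). Per length, the share of PFKFB4 in its sum with PFKFB3 went from 17.3% ± 1.39 to 31.7% ± 0.332 (SD, n = 3), and PFKFB3 stayed the most abundant of the 3 in both groups.

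**Figure D2:**
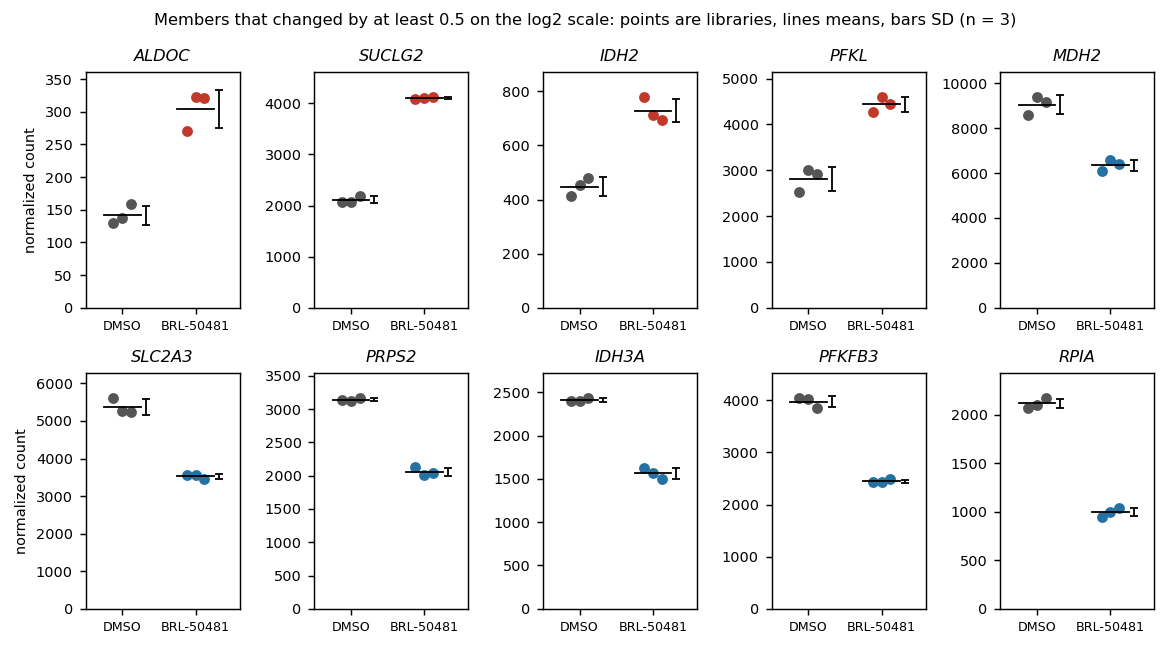
Normalized counts of the 10 members called with an absolute log2 fold change of at least 0.5, with a point for each library, a line for the mean and a bar for the SD (n = 3), and a linear axis from 0 in each panel. Grey points are DMSO, red points BRL-50481 where it was higher and blue points BRL-50481 where it was lower, and in no panel do the groups overlap.

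Lower glycolysis and lactate dehydrogenase held the most abundant members, and its genes split. GAPDH, which oxidizes the triose phosphate, had 68460, 77884 and 71362 normalized counts under DMSO and 84244, 90018 and 86601 under BRL-50481. PGK1, the next enzyme and an ATP-forming step, had 24536, 25855 and 25127 under DMSO and 30142, 30613 and 30898 under BRL-50481. Both were higher in every BRL-50481 library, with log2 fold changes of 0.26 ± 0.053 for GAPDH (SE, limma adjusted p = 0.000866) and 0.28 ± 0.0424 for PGK1 (SE, limma adjusted p = 8.68e-05). Both calls held in every alternative, but the size for GAPDH was 0.43 with quantile normalization and that for PGK1 was 0.17 with the length and GC correction. PGAM1, the mutase that follows, had a log2 fold change of -0.07 (limma adjusted p = 0.322).

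The enolases lay on the other side. ENO1, the most abundant member, had 102051, 113308 and 106975 normalized counts under DMSO and 92700, 97676 and 97148 under BRL-50481. The groups did not overlap, and the log2 fold change was -0.16 ± 0.0493 (SE, limma adjusted p = 0.0116). Its call was lost without BRL-50481 replicate 1 (limma adjusted p = 0.0649). With quantile normalization the direction turned and ENO1 was called higher, at 0.16 (limma adjusted p = 0.0074). ENO2, the neuronal form, fell by 0.14 on the log2 scale (limma adjusted p = 0.0217), a call lost without DMSO replicate 2 or any BRL-50481 library (limma adjusted p up to 0.0784).

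PKM, pyruvate kinase, had a log2 fold change of -0.07 with a 95% interval of -0.17 to 0.03, and was called lower without DMSO replicate 1 (limma adjusted p = 0.0183) and higher, at 0.16, with quantile normalization. LDHA, the lactate dehydrogenase subunit that favours lactate formation, had 41356, 44874 and 44086 normalized counts under DMSO and 43022, 42482 and 43831 under BRL-50481. The groups of LDHA overlapped, and the 95% interval of its log2 fold change was -0.11 to 0.09. With quantile normalization LDHA was called higher, at 0.15 (limma adjusted p = 0.00404). LDHB had 16932, 18481 and 17924 under DMSO and 16352, 15849 and 16316 under BRL-50481 (log2 fold change -0.14, limma adjusted p = 0.0221), a call lost when any library other than DMSO replicate 1 was left out (limma adjusted p up to 0.0928). The share of LDHA in the pair per length was 58.7% ± 0.156 under DMSO and 60.8% ± 0.273 under BRL-50481 (SD, n = 3). The branch had 2 genes higher, 3 lower and 3 not called, with a median of -0.07, and that median turned to 0.16 with quantile normalization.

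The pentose phosphate and PRPP genes of the set fell, with 1 exception, PGLS. Of the 8 genes 7 were lower (87.5%) and 1 was higher (12.5%), where 29.8% and 28.9% of all genes were. The median log2 fold change was -0.29, against 0.01 over all genes. The fall did not extend to every gene of the pathway, since H6PD, outside these 8, rose, as given further on. Related genes outside these 8, named after their values were seen, went both ways. RBKS rose by 0.80 (limma adjusted p = 5.73e-05) and SHPK by 0.35 (0.0243), while PGM2 fell by 0.28 (0.00057). PRPSAP1 and PRPSAP2 were not called (limma adjusted p = 0.416 and 0.231). The share of the 8 branch genes in all normalized counts was 0.122% ± 0.00549 under DMSO and 0.104% ± 0.00147 under BRL-50481 (SD, n = 3), and the groups did not overlap. RPIA, the isomerase that forms ribose phosphate in the non-oxidative arm (chromosome 2, 88691673 to 88750929, plus strand), had the largest fall of any member. It had 2071, 2104 and 2170 normalized counts under DMSO and 950, 996 and 1033 under BRL-50481. No DMSO library came near the BRL-50481 range, and the level was 0.470 of that under DMSO (log2 fold change -1.09 ± 0.0587 SE, limma adjusted p = 1.2e-08).

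The PRPP synthetases, which turn ribose phosphate into the sugar donor for purine and pyrimidine nucleotides, were both lower. PRPS2 (chromosome X, 12791355 to 12824222, plus strand) had 3131, 3130 and 3167 normalized counts under DMSO and 2130, 2005 and 2037 under BRL-50481 (log2 fold change -0.61 ± 0.0508 SE, limma adjusted p = 4.77e-07). PRPS1 had 1958, 2197 and 2147 under DMSO and 1578, 1526 and 1573 under BRL-50481 (log2 fold change -0.43 ± 0.0596 SE, limma adjusted p = 4.17e-05). Neither gene had overlapping groups. The share of PRPS1 in the pair per length was 44.3% ± 1.47 under DMSO and 47.5% ± 0.528 under BRL-50481 (SD, n = 3).

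TKT, the transketolase that exchanges carbon units between sugar phosphates and the most abundant gene of this branch, had 16703, 18776 and 17514 normalized counts under DMSO and 13852, 14857 and 13960 under BRL-50481. All DMSO libraries exceeded all BRL-50481 libraries (log2 fold change -0.31 ± 0.0521 SE, limma adjusted p = 0.000196). PGD, phosphogluconate dehydrogenase of the oxidative arm, fell by 0.28 on the log2 scale (limma adjusted p = 0.000272). PGLS, the lactonase that precedes PGD, rose by 0.34 (limma adjusted p = 0.00177), from 1271, 1570 and 1514 normalized counts under DMSO to 1805, 1789 and 1900 under BRL-50481. Consecutive steps of the oxidative arm therefore moved in opposite directions. RPE, the epimerase, fell by 0.19 (limma adjusted p = 0.0195) and TALDO1, transaldolase, by 0.15 (limma adjusted p = 0.0403). The RPE call was lost without DMSO replicate 3 or BRL-50481 replicate 3 (limma adjusted p up to 0.108), and the TALDO1 call without any library other than DMSO replicate 1 (limma adjusted p up to 0.165).

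Where pyruvate enters the mitochondrion, the subunits of the pyruvate dehydrogenase complex did not move as 1 group. PDHA1, the catalytic alpha subunit on the X chromosome, fell by 0.29 on the log2 scale (limma adjusted p = 0.000401), while PDHB, its partner subunit, rose by 0.22 (limma adjusted p = 0.00294). DLAT, the acetyltransferase core, had 4012, 3984 and 3954 normalized counts under DMSO and 4382, 4408 and 4226 under BRL-50481. Its groups did not overlap (log2 fold change 0.12, limma adjusted p = 0.0363), but the call was lost when any library other than DMSO replicate 1 was left out (limma adjusted p up to 0.124), and with the length and GC correction the log2 fold change of DLAT fell to 0.036 (limma adjusted p = 0.388). DLD, the dehydrogenase subunit that the complex shares with others, had a log2 fold change of 0.02 (limma adjusted p = 0.782).

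The pyruvate dehydrogenase kinases, which switch the complex off, had 1 lower gene of 3. PDK1, a well-known hypoxia target, had 1243, 1141 and 1190 normalized counts under DMSO and 1266, 1146 and 1158 under BRL-50481, and a 95% interval of -0.14 to 0.14 for its log2 fold change. With the length and GC correction it was called lower, at -0.28 (limma adjusted p = 0.00077), the only alternative in which PDK1 was called. PDK2 fell by 0.31 (limma adjusted p = 0.0105), a call lost without BRL-50481 replicate 1 (limma adjusted p = 0.0611). PDK3 had a log2 fold change of -0.17 (limma adjusted p = 0.136). PC, pyruvate carboxylase, which feeds oxaloacetate into the cycle, had 2375, 2651 and 2482 under DMSO and 3174, 3437 and 3103 under BRL-50481. It was higher in every BRL-50481 library (log2 fold change 0.37 ± 0.0596 SE, limma adjusted p = 0.000138). Over the 8 genes of pyruvate entry, 3 rose, 2 fell and 3 were not called, with a median of 0.01.

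Of the 14 TCA cycle genes 2 rose (14.3%), 4 fell (28.6%) and 8 were not called, with a median of -0.06. Of all genes 28.9% rose and 29.8% fell, so the share of falls was near the background. Both rises and the largest falls were at steps with more than 1 isoenzyme. SUCLG2, the subunit that makes succinyl-CoA ligase specific for GTP (chromosome 3, 67360460 to 67654612, minus strand), had 2075, 2077 and 2192 normalized counts under DMSO and 4091, 4097 and 4119 under BRL-50481. It was 1.94 times as high, with the BRL-50481 libraries close together (log2 fold change 0.96 ± 0.0497 SE, limma adjusted p = 9.69e-09). SUCLA2, the subunit for the ATP form, had 1057, 971 and 918 under DMSO and 941, 946 and 856 under BRL-50481, with overlap (95% interval of the log2 fold change -0.26 to 0.06). The alpha subunit that both forms use, SUCLG1, had a log2 fold change of -0.02 (95% interval -0.15 to 0.11). Per length, SUCLG2 went from 65.9% ± 2.19 to 80.1% ± 0.944 of its sum with SUCLA2 (SD, n = 3).

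The isocitrate dehydrogenases gave 1 rise, 1 fall and 3 genes not called. IDH2, the NADP-dependent mitochondrial form (chromosome 15, 90083045 to 90102477, minus strand), had 412, 453 and 479 normalized counts under DMSO and 778, 713 and 695 under BRL-50481. Every BRL-50481 library was above every DMSO library (log2 fold change 0.70 ± 0.0828 SE, limma adjusted p = 9.85e-06). IDH1, the cytosolic form, had 2359, 2228 and 2284 under DMSO and 2402, 2313 and 2417 under BRL-50481 (95% interval of the log2 fold change -0.06 to 0.17). IDH1 remained the more abundant of the pair per length, with a mean of 85.4% of their sum under DMSO and 78.9% under BRL-50481, and the groups did not overlap.

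In the NAD-dependent enzyme of the cycle only the catalytic subunit was called. IDH3A (chromosome 15, 78131498 to 78171945, plus strand) had 2399, 2394 and 2431 normalized counts under DMSO and 1630, 1563 and 1494 under BRL-50481, without overlap (log2 fold change -0.62 ± 0.0551 SE, limma adjusted p = 7.78e-07). IDH3B had 1638, 1813 and 1789 under DMSO and 1660, 1800 and 1668 under BRL-50481, and IDH3G had 799, 937 and 839 against 877, 899 and 810. Both regulatory subunits overlapped between groups, with log2 fold changes of -0.03 (95% interval -0.16 to 0.10) for IDH3B and 0.01 (95% interval -0.16 to 0.17) for IDH3G. The share of IDH3B in its sum with IDH3A per length went from 65.7% ± 1.21 to 74.3% ± 1.23, and that of IDH3G from 52.1% ± 2.13 to 62.8% ± 0.854 (SD, n = 3).

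MDH2, the mitochondrial malate dehydrogenase and the most abundant TCA cycle gene (chromosome 7, 76048051 to 76067508, plus strand), had 8592, 9378 and 9185 normalized counts under DMSO and 6080, 6565 and 6409 under BRL-50481. It was lower in every BRL-50481 library (log2 fold change -0.51 ± 0.0509 SE, limma adjusted p = 2.25e-06). MDH1, the cytosolic form, had 3233, 3445 and 3369 under DMSO and 3480, 3527 and 3701 under BRL-50481 (95% interval of the log2 fold change -0.02 to 0.20), and was called higher with quantile normalization (0.14) and with the length and GC correction (0.11). The share of MDH1 in the pair per length was 38.3% ± 0.338 under DMSO and 48.5% ± 0.982 under BRL-50481 (SD, n = 3). OGDH and DLST, subunits of the oxoglutarate dehydrogenase complex, fell by 0.18 (limma adjusted p = 0.00786) and 0.23 (limma adjusted p = 0.000945) on the log2 scale. The OGDH call was lost without BRL-50481 replicate 1 (limma adjusted p = 0.0515). CS, citrate synthase, and FH, fumarase, were not called, with log2 fold changes of -0.09 (limma adjusted p = 0.0918) and -0.12 (limma adjusted p = 0.0722), and both were called lower without DMSO replicate 1 (limma adjusted p = 0.0455 and 0.00188) and with the length and GC correction (0.00206 and 0.0117).

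Isoenzymes of 1 step are compared within a library in these pairs, so that a single scaling factor per library cancels. The pairs of IDH3B and IDH3G with IDH3A join subunits of 1 enzyme instead. In all, 17 pairs of members were compared, and the groups did not overlap in the log2 ratio of 14. Single genes already did not overlap in 64.2% of cases and ratios of other gene pairs were not computed, so this count is no result about isoenzymes. With 3 libraries against 3 the exact two-sided permutation test cannot go below p = 0.1, which is the value of those 14 (0.121 after adjustment over the 17 pairs), so no pair can pass 0.05 by this test. The shift in log2 ratio was widest for PFKFB4 over PFKFB3, at 1.15 with a 95% interval of 0.93 to 1.38. It was -1.07 (-1.35 to -0.79) for ALDOA over ALDOC, 1.06 (0.79 to 1.32) for SUCLG2 over SUCLA2 and 0.91 (0.70 to 1.13) for PFKFB2 over PFKFB3. Smaller shifts included 0.87 (0.69 to 1.04) for SLC2A1 over SLC2A3 and 0.60 (0.51 to 0.70) for MDH1 over MDH2. For PDK1 over PDK3 the groups did not overlap, but the interval of the shift (0.16, -0.03 to 0.36) included 0. The pairs HK2 and HK1, ENO1 and ENO2, and PDK2 and PDK3 overlapped. For HK2 over HK1 the shift was -0.06 (-0.18 to 0.07), and for ENO1 over ENO2 it was -0.02 (-0.16 to 0.11).

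**Figure D3:**
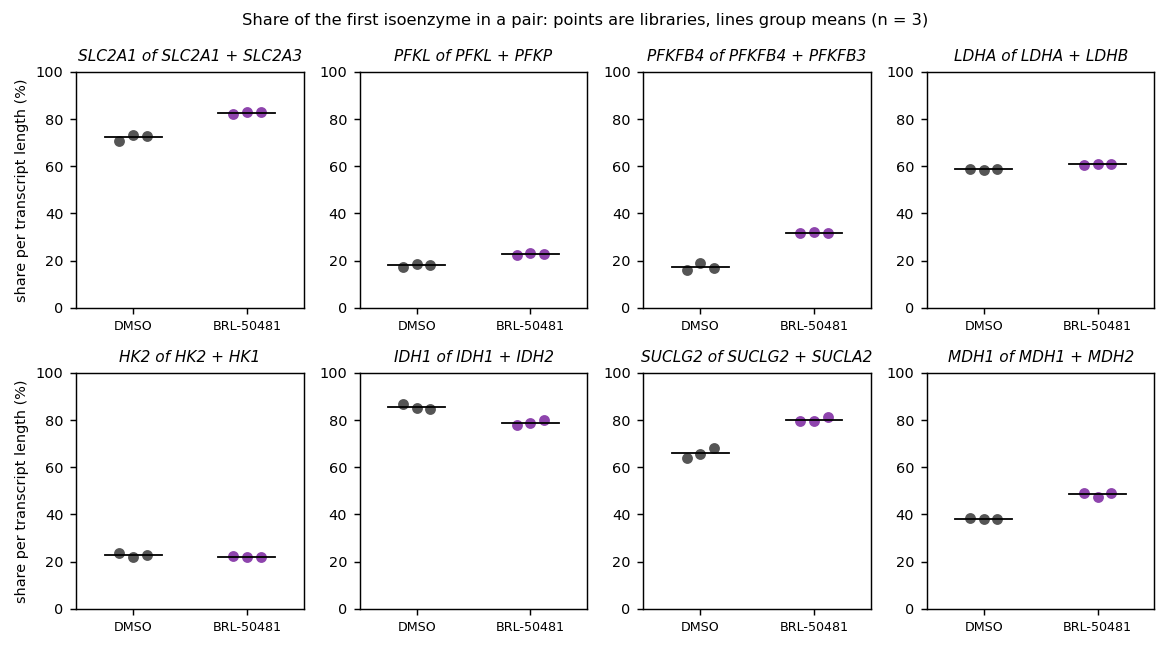
Share of the first gene in the sum of each isoenzyme pair, in percent of normalized counts per kilobase, with a point for each library of DMSO and BRL-50481. SUCLG2 moved from 65.9% to 80.1% of its pair and MDH1 from 38.3% to 48.5%, while HK2 lay at 22.7% and 22.0% of its pair with overlapping groups.

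Reads of some members can match other genes as well. The paper gives htseq-count with default settings apart from the strand, which leaves out reads that match several genes. How many reads of each member were left out was not measured. GENCODE lists 65 pseudogenes named after GAPDH, 13 after PGAM1, 6 each after LDHA and RPE, and 5 after PKM. Exon bases on the same strand are shared with another gene for GPI, PFKP, ALDOA, LDHB and CS, for PFKFB4 with UCN2, and for PGK1 with ATP7A and C4orf46P2.

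A further 37 genes of central carbon metabolism were tested beside the members. Of these 14 rose (37.8%), 11 fell (29.7%) and 12 were not called, with a median of 0.05. Of all genes 28.9% rose and 29.8% fell, so the share that fell was near the background. TIGAR, a phosphatase that lowers the activator made by the PFKFB enzymes, had 933, 985 and 1097 normalized counts under DMSO and 508, 461 and 434 under BRL-50481. It was lower in every BRL-50481 library (log2 fold change -1.10 ± 0.0846 SE, limma adjusted p = 2.36e-07), so PFKFB3 and TIGAR, whose products act in opposite directions on that activator, were both lower. SLC2A10, a transporter of low abundance here, had 62.5, 56.8 and 70.5 under DMSO and 164, 146 and 145 under BRL-50481 (log2 fold change 1.25 ± 0.145 SE, limma adjusted p = 8.31e-06). The most abundant genes of the list were SLC16A3, the lactate exporter MCT4, with a log2 fold change of 0.40 (limma adjusted p = 0.000213), and PDP1, a pyruvate dehydrogenase phosphatase, with 0.24 (limma adjusted p = 0.00157), or 0.14 with the length and GC correction.

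The succinate dehydrogenase subunits, which stand both in the TCA cycle and in the respiratory chain, had 3 falls and 1 rise. SDHD had a log2 fold change of -0.36 (limma adjusted p = 5.51e-05), SDHB of -0.20 (limma adjusted p = 0.0113) and SDHA of -0.14 (limma adjusted p = 0.0235), and SDHC rose by 0.19 (limma adjusted p = 0.0124). The SDHD call held when any library was left out. Quantile normalization lost the SDHA and SDHB calls, as did limma without the trend, and median centring lost that of SDHA. The SDHA call was lost without any library other than DMSO replicate 1 (limma adjusted p up to 0.0962), the SDHB call without DMSO replicate 3 or BRL-50481 replicate 1 (up to 0.0539), and the SDHC call without DMSO replicate 3 or BRL-50481 replicate 3 (up to 0.0697).

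Some other genes of the list were singled out after their values were seen. H6PD runs the oxidative pentose phosphate steps that precede PGD, inside the endoplasmic reticulum. It had 3380, 2993 and 3000 normalized counts under DMSO and 5955, 6232 and 6009 under BRL-50481. The log2 fold change of H6PD was 0.96 ± 0.0564 (SE, limma adjusted p = 2.58e-08). That direction was the same as for PGLS, the cytosolic lactonase (0.34), and opposite to that of PGD (-0.28). ME2, the mitochondrial malic enzyme, fell by 0.70 (limma adjusted p = 5.18e-07), along with MDH2. ACO1, the cytosolic aconitase, rose by 0.43 (limma adjusted p = 3.28e-06), or by 0.25 with the length and GC correction.

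**Figure D4:**
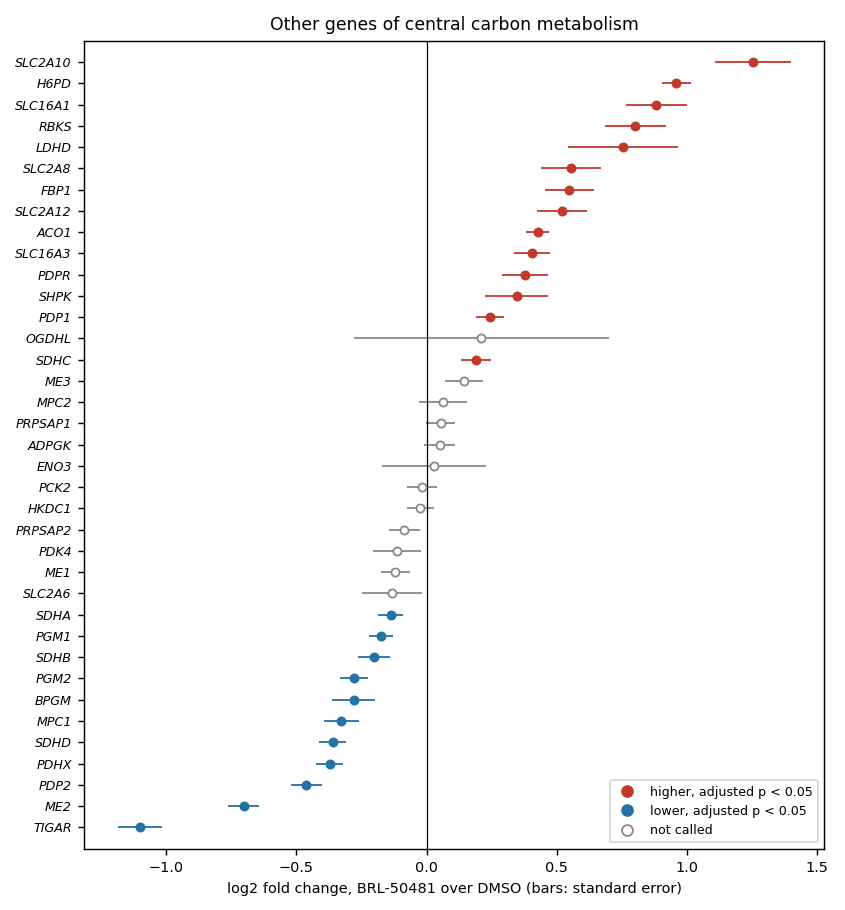
Log2 fold change of BRL-50481 over DMSO for the 37 other genes of central carbon metabolism, ordered by size, with bars for the standard error and filled points for genes called by limma (red higher, blue lower). The ends of the range are SLC2A10 at 1.25 and TIGAR at -1.10, and 12 genes near 0 are open points.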

How the data were processed

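RNA was sequenced from 3 DMSO and 3 BRL-50481 libraries of MDA-MB-231 cells. Per the submitters' processing notes, the authors used STAR 2.7.1a, HTSeq and DESeq2 1.28 with the hg38 build. The labels name both poly-A selection and ribosomal RNA depletion, so the selection step is not settled here. The deposited signal is a count per gene divided by a DESeq2 size factor for the library, and the authors' own columns (mean, fold change, standard error, test statistic, p-value and adjusted p-value) were not used.

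Every deposited value was a whole multiple of the value of 1 read, which gave back reads for count tests. Groups were taken from the labels. Genes that reached a normalized count of 4 in 3 or more samples were tested with limma 3.58.1 (trend) in R 4.3.3 on log2 of the normalized count plus 1, and p-values were adjusted by Benjamini-Hochberg over all 15246 genes at 0.05. Fold changes are on that scale and understate changes of low genes. Alternatives were edgeR 4.0.16 and DESeq2 1.42.0 on the recovered reads, other pseudocounts and filters, quantile normalization, median centring, no trend, a replicate block, a length and GC correction, and leaving out each library. The code was tested on simulated data. The SD in each group covers the spread between these libraries. The limma p-values rest on that spread, moderated by the variance trend over all genes, and cover no other source of variation.

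Levels per kilobase used GENCODE 44 transcript lengths, and 96.5% of genes had one. Every member could be named. Values in every library were printed for members called with an absolute log2 fold change of at least 0.5, the most abundant member of each branch and the isoenzyme pairs discussed. Of those pairs, HK1, HK2, ENO2, PDK2 and PDK3 were left without such values. They were also printed for GAPDH, PGK1, PGLS and PC. Of the other lists, named genes were those called at an absolute log2 fold change of at least 1, the most abundant ones and the succinate dehydrogenase subunits, with others marked as chosen after their values were seen. Promoters were shown for the 2 largest called rises and the 2 largest called falls. Protein sequences were not used here, and 1 gene of the list of other carbon genes is not reported here. The members and lists were chosen with earlier results of these data known.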

Additional observations from a re-analysis of the deposited data

How the results depend on the processing

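With quantile normalization 13 members were lower, and with limma without the trend 12 were; leaving out 1 library gave 12 to 15 higher and 12 to 23 lower. Other counts stayed within 1.5 times, at 14 higher and 20 lower with edgeR, 12 and 19 with DESeq2, 15 and 15 with median centring, and 15 and 24 with the length and GC correction. Whether replicate numbers pair the samples was not settled. Same-numbered libraries correlated at 0.121, 0.104 and 0.0514 in their deviations from the group means, and differently numbered ones at -0.159 to 0.0607. Each DMSO library correlated best with the BRL-50481 library of its own number, but BRL-50481 replicate 3 correlated best with DMSO replicate 2 (0.0607). A replicate block gave 15 higher and 20 lower among the members and 4440 and 4589 among all genes. With that block no member's call was lost and that of HK1 was gained. Branch medians under quantile normalization were 0.13 for upper glycolysis, 0.16 for lower glycolysis, -0.24 for the pentose phosphate branch and -0.016 for the TCA cycle, which was -0.032 with median centring. With the length and GC correction they were 0.00049 for glucose uptake, 0.038 for the PFKFB genes and -0.11 for pyruvate entry. Genes whose sign turned were ENO1 (0.16), PKM (0.16), LDHA (0.15), PDK1 (0.044), IDH3B (0.012) and SUCLG1 (0.027) with quantile normalization, LDHA (0.020), PDK1 (0.028) and SUCLG1 (0.011) with median centring, and HK2 (-0.068), DLD (-0.059), IDH3B (0.0075), SUCLG1 (0.0092) VEGFA (-0.046) and ERBB3 (-0.11) with the length and GC correction, and ERBB3 (-0.037) with quantile normalization. Leaving out a library moved ALDOA between -0.034 and 0.086, LDHA between -0.045 and 0.014, DLD between -0.00054 and 0.050, PDK1 between -0.047 and 0.029, IDH3G between -0.042 and 0.074, SUCLG1 between -0.067 and 0.014, VEGFA between -0.0028 and 0.017 and ERBB3 between -0.059 and 0.10. The cause of these moves was not tested. Of the 18 genes not called, 4 (HK1, PKM, CS and FH) were called without DMSO replicate 1. ALDOC had the lowest mean normalized count of the members, at 223, and whether depth affected a call was not tested. CDH5 has no value with the filter at a mean of at least 20.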

Other observations

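Because several glycolytic genes are known targets of hypoxia-inducible factors, 14 other hypoxia-inducible genes were read beside them. Of these 6 rose (42.9%), 4 fell (28.6%) and 4 were not called, where 28.9% of all genes rose and 29.8% fell. The median log2 fold change was 0.11, against 0.01 over all genes. With an absolute log2 fold change of at least 0.5 added to the call, 3 rose and 3 fell. CA9, a membrane carbonic anhydrase, had 17.9, 22.5 and 17.4 normalized counts under DMSO and 127, 129 and 129 under BRL-50481. Its groups did not overlap, although it was the least abundant of the genes named here (log2 fold change 2.68 ± 0.187 SE, limma adjusted p = 1.06e-07). NDRG1, a stress-responsive gene, had 13129, 13706 and 13497 under DMSO and 20207, 20479 and 21002 under BRL-50481, and rose by 0.61 on the log2 scale (limma adjusted p = 1.08e-07). VEGFA, the vascular growth factor, had 27107, 26810 and 26923 under DMSO and 27494, 27051 and 26738 under BRL-50481, with overlapping groups and a 95% interval of -0.08 to 0.10 for its log2 fold change.

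The 3 largest falls were named after their values were seen. HILPDA, a lipid droplet protein, fell by 0.98 (limma adjusted p = 7.11e-07), ADM, the vasodilator adrenomedullin, by 0.81 (limma adjusted p = 7.74e-07) and MXI1, a MAX partner, by 0.81 (limma adjusted p = 3.9e-08). Genes of the list thus moved in opposite directions, as did the members of glycolysis, with SLC2A1, GAPDH and PGK1 higher and SLC2A3, PFKFB3 and ENO1 lower by the same limma test. ENO1 was the exception to a stable direction, at 0.16 with quantile normalization.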
